A study of Flechtneria rotunda with 10 samples.

Results

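Late desiccation was compared with the hydrated state in Flechtneria rotunda, a unicellular green alga of deserts, grown as strain SEV3VF49. The comparison used 4 of the 10 RNA sequencing libraries, 2 from late desiccation and 2 from hydrated drops, and 10467 of the 17148 assembled genes, those that passed a filter on low counts. All groups came from cultures grown for 6 weeks and sampled as 40 µL drops on a cover glass. Hydrated drops were collected at once. Late drops were collected at 7.5 h, when 60% of the volume had gone and the drop still held liquid. Early drops (2.5 h, 25% lost), dry drops (flat, about 24 h, of which 11 h after flattening) and drops wetted again for 1 h serve here to show how the late change arose and what became of it. No group carries a genetic change, and all libraries are of 1 strain. The labels leave unstated whether the paired libraries are from separate cultures, so p-values measure only how these libraries scatter, which may be technical.

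As a drop evaporates, solutes in the remaining medium become concentrated, and cells meet osmotic stress before they lose most of their own water. In plants and algae that survive drying, this phase is known for the build-up of protective proteins and small solutes, while photosynthesis and growth are turned down. Once cells are dry, metabolism is arrested, and messenger RNA present at that point can be carried through the dry state. The genes here carry assembly identifiers only. The files pair none with a name, function, sequence or genome position, so no pathway could be counted, no sequence is shown, and the labelled cell type could not be checked against marker genes. Genes are therefore grouped by their course.

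Library totals over the table ran from 1696655 to 5409197 counts, the largest being late replicate 2. Reads were found for 16728 and 16972 genes in the late replicates and for 10742 to 13774 in the remaining libraries. Thinned at random to the smallest total, they still had 15992 and 16340, against 10465 to 13485. The late libraries thus stand apart in the number of genes with reads also at equal depth, and the part of this in the results was not tested. The labels give no day of preparation or sequencing, so a difference of that kind between the late and hydrated libraries cannot be told apart from the stage. The late pair correlated at 0.96 across genes in log2 CPM (counts per 1000000 counts of a library) and the hydrated pair at 0.942. The deposited table is named for differentially expressed genes, by a choice not given, so shares of tested genes do not extend to the whole gene set. In bulk samples, fewer cells and less RNA per cell cannot be told apart, and all levels are relative within a library.

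The first question was how far the transcriptome had moved while liquid remained. Relative to hydrated drops, 1206 genes rose and 1402 fell by late desiccation by edgeR's quasi-likelihood test (Benjamini-Hochberg adjusted p below 0.05), which is 24.9% of the tested genes, 11.5% higher and 13.4% lower. Rises had the larger median change. Their median log2 fold change was 1.92 (quartiles 1.28 to 2.86, median SE 0.366) and that of falls was -1.56 (quartiles -2.19 to -1.15, median SE 0.314). The median over all tested genes was 0.04. Changes of at least 16-fold were fitted for 122 rises and 46 falls. Of the rising genes 65 had no reads in hydrated drops, and 7 of the falling genes had none at late desiccation. With such genes held at 3 counts over the stage, 68 rises and 44 falls of at least 16-fold were left, so many of the largest fitted rises are only bounded by the depth of the hydrated libraries. Late and hydrated libraries did not overlap in 1204 of the 1206 rises and in all 1402 falls, beside 35.9% and 33.6% of all tested genes that lay above or below without overlap.

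**Figure D1:**
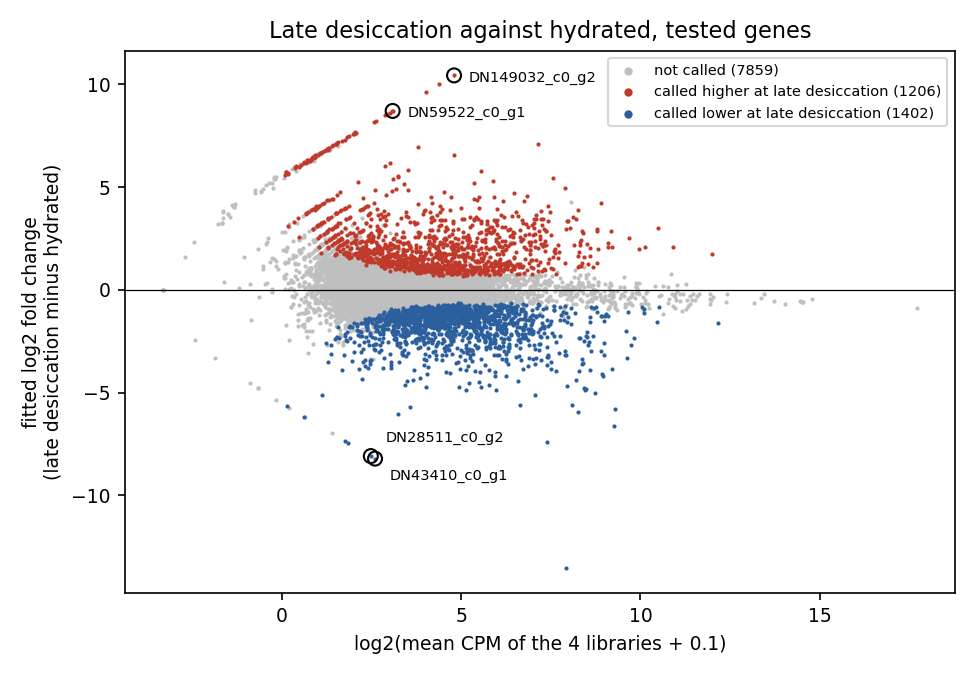
Fitted log2 fold change of late desiccation against hydrated (vertical axis) for the 10467 tested genes, against the log2 of their mean CPM over the 4 libraries plus 0.1. Each point is 1 gene, coloured by its call (1206 higher, 1402 lower). The lowest point is the fall of TRINITY_DN6519_c0_g1 (-13.6), the oblique lines of points are genes with few or no counts in 1 stage, and circles mark the 4 genes named by the fixed rule.

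The size of both lists depended on single libraries and on scaling. Rises numbered 619 when hydrated replicate 1 was left out, 676 for hydrated replicate 2, 619 for late replicate 1 and 794 for late replicate 2. Falls numbered 874, 822, 740 and 746 in the same order. Directions are relative to the TMM scale (a trimmed mean of ratios between libraries). With libraries scaled by their totals alone, the median of all genes moved from 0.04 to 0.48 and 1692 genes were higher and 608 lower, so 73.6% of the calls were rises in place of 46.2%. No gene changed direction between these 2 sets of calls.

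The rising genes were a small part of the RNA in hydrated drops and a large part at late desiccation. They held 2.34% and 2.66% of the counts in the hydrated libraries, and 13.5% and 12.6% in the late ones. The falling genes went from 12.4% and 15.1% to 5.02% and 5.63%. Both lists were chosen on these libraries, so these shares describe the size of the change and carry no test. The gain was spread over many genes, since the 10 most counted rising genes held 20.6% to 23.0% of the rising genes' counts at late desiccation. With 2 libraries against 2, an exact two-sided permutation test of such a share cannot go below p = 0.333.

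At 25% volume loss both lists lay, by their medians, between the hydrated and the late level. The genes that rose by late desiccation had a median log2 fold change of 0.86 at early desiccation (quartiles 0.31 to 1.45) beside 1.92 at late. The genes that fell had -0.88 (quartiles -1.46 to -0.48) beside -1.56. Both stages were set against the same hydrated libraries, on which the genes were chosen, and what these shared libraries add to the early medians was not tested. From early to late, which share the late libraries with the choice of genes, the medians were 1.02 for rises and -0.69 for falls. In counts, the share held by the rising genes was 5.96% and 6.19% in the early libraries, between the hydrated and late values.

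Rising and falling genes differed in level and relative length. The deposited signal is taken to be per length, as judged from its column sums alone, and is the scale used to compare levels of different genes. In hydrated drops, on which the genes were chosen, its median was 3.94 for rising genes, 26.6 for falling genes and 6.89 over all tested genes. The early libraries were not in the contrast that chose the genes, though they shared its filter, scaling and fit. Both lists had already shifted in them. Their median signal was 7.0 for rising genes, 14.6 for falling genes and 7.05 over all tested genes. Of the falling genes 676 lay in the top quartile of early signal and 114 in the lowest. The rising genes were more even, with 350 and 363. Relative length, taken from the ratio of the 2 deposited tables for 10463 genes, also moved with direction. The longest quartile of genes held 474 rises and 376 falls, and the shortest 178 rises and 407 falls. The median log2 fold change of all genes was -0.16 in the shortest quartile and 0.17 in the longest. With each library's trend with length removed, 1158 genes were higher and 1405 lower.

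The second question was which part of the late change was still there in dry drops. Of the 1206 rises, 695 (57.6%) were also called higher in dry than in hydrated drops, where 22.7% of all tested genes were higher. Of the 1402 falls, 879 (62.7%) were also called lower, where 22.3% of all genes were lower. A rise is called undone where the gene fell from late to dry and was not above hydrated, and a fall the other way round. From late to dry, whatever the call against hydrated, 32.1% of rises fell and 29.4% of falls rose, beside 20.3% and 22.4% of all genes. By the full rule 361 rises (29.9%) and 365 falls (26.0%) were undone. These include 54 rises and 145 falls that passed the hydrated level, which the figures show as a class of their own. The remaining 150 rises and 158 falls were called in neither dry comparison. All these comparisons share the hydrated or the late libraries with the choice of genes, so the counts are a description without a test.

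**Figure D2:**
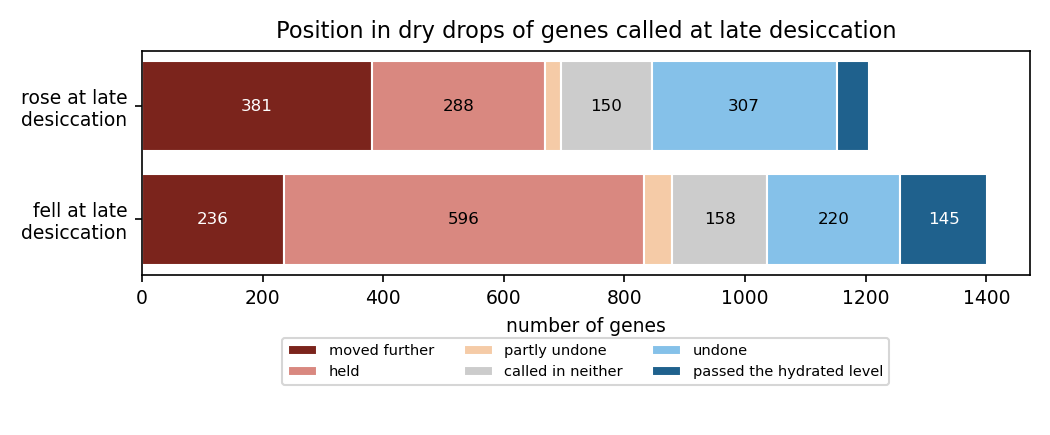
Number of genes (horizontal axis) that rose or fell at late desiccation, split by their calls in dry drops. Dark red marks genes that moved further from late to dry, light red genes held without a call between late and dry, and orange genes partly undone. Grey marks genes called in neither comparison and dark blue genes that passed the hydrated level. Light blue marks genes undone without passing that level, and undone has this narrower sense in the figures. On the TMM scale moved further holds 381 rises and held 596 falls. With library totals alone the largest classes are 693 undone rises and 298 falls that moved further, and without late replicate 1 held rises (199) outnumber those that moved further (182).

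The kept genes fell into those that held and those that moved on. Among kept rises, 381 rose again from late to dry, 288 held without a call and 26 fell part of the way back. Among kept falls, 236 fell again, 596 held and 47 recovered in part. From late to dry, 22.4% of all tested genes were called higher and 20.3% lower. A further rise followed 31.6% of rises, above that share, and a further fall 16.8% of falls, below it. The order of rises and falls turned with library totals alone, where 203 of 1692 rises rose further and 298 of 608 falls fell further. Leaving out hydrated replicate 1, hydrated replicate 2 or late replicate 1 left 206, 234 and 182 rises that moved further and 389, 369 and 361 held falls, and without either hydrated replicate 164 and 162 rises were held. Falls that moved further numbered 147, 138, 102 and 83 without a hydrated replicate (1, then 2) or a late one, and 148 without dry replicate 1. For the genes that rose at both steps, the median log2 fold change from the hydrated level was 0.73 in early, 1.87 in late and 3.77 in dry drops. Those that fell at both steps had -0.90, -1.61 and -3.83. The 26 and 47 partly undone genes had the largest late medians of these classes, 3.46 and -2.72, and in dry drops they stood at 1.63 and -1.34.

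Most undone genes were not called in either direction against hydrated in dry drops, and their dry values lie near the hydrated level by that choice. The 307 rises that fell from late to dry and were called in neither direction against hydrated had a median log2 fold change of 2.10 at late desiccation and of -0.14 in dry drops (quartiles -0.82 to 0.25). The median over all tested genes in dry against hydrated was -0.28. The 220 undone falls called in neither direction against hydrated had -1.41 at late desiccation and 0.08 in dry drops (quartiles -0.25 to 0.39). No reads were left in either dry library for 52 of the 307 genes.

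A last group passed the hydrated level on the way to dry. In dry drops 54 of the rises (4.48%) stood below hydrated, where 22.3% of all tested genes were lower. Their median was -2.15 after 1.52 at late desiccation. Of the falls, 145 (10.3%) stood above hydrated, where 22.7% of all tested genes were higher. Their median was 1.38 after -1.27. Both shares of the late genes lay below those of all tested genes. These 145 genes held 2.77% and 3.27% of the counts in hydrated libraries, 1.23% and 1.25% in late ones and 6.58% and 6.94% in dry ones. The genes were chosen on these libraries, so the direction of these shares follows from that choice. Their dry share was concentrated, with 63.7% to 66.3% of it in 10 genes. Both counts moved with scaling and with single libraries. With library totals alone, 213 rises stood below hydrated and 18 falls above it, and DESeq2 gave 24 and 125. Without hydrated replicate 1, hydrated replicate 2, late replicate 1 or late replicate 2 there were 21, 20, 31 and 25 such rises and 48, 43, 95 and 57 such falls. Without dry replicate 1 or 2 the rises numbered 36 and 35.

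**Figure D3:**
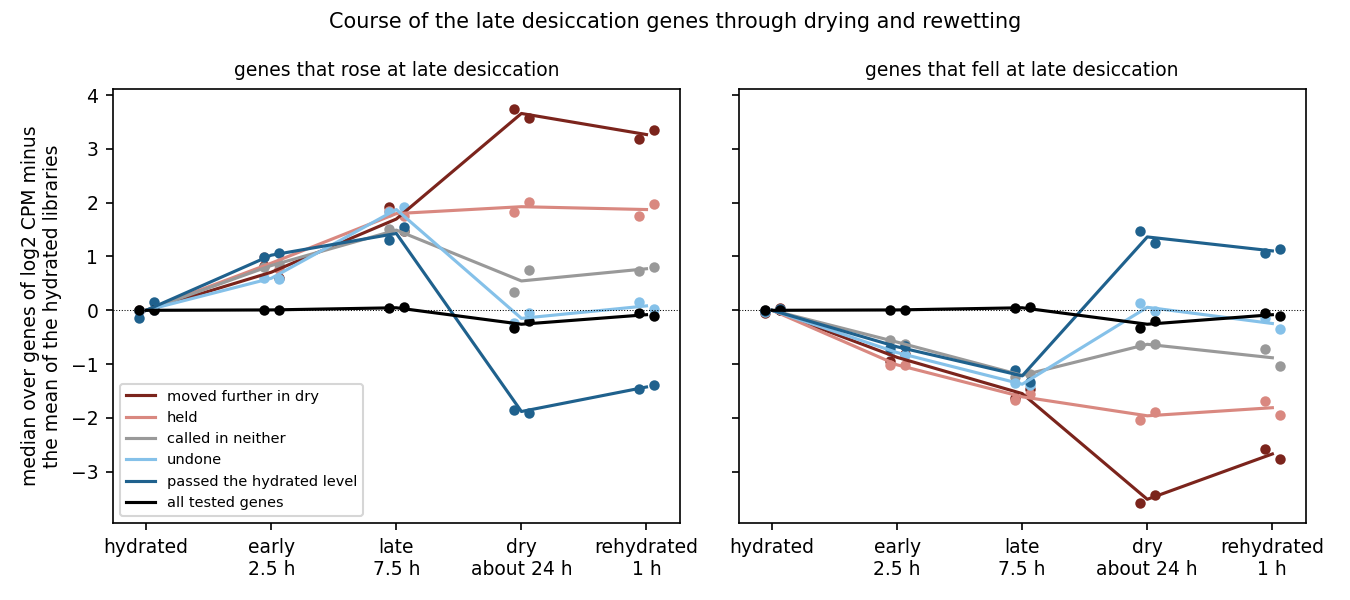
Median over genes of log2 CPM minus the mean of the 2 hydrated libraries (vertical axis), per library (points) and as the mean of the 2 libraries of a stage (lines). Genes that rose at late desiccation are on the left and genes that fell on the right, split by their calls in dry drops, with all tested genes in black. Partly undone genes are not drawn. At late desiccation the stage means of the rising classes that held, moved further, were undone or passed the hydrated level lie between 1.43 and 1.87, and in dry drops between -1.88 and 3.66.

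The division into kept and undone genes moved with the scaling. When libraries were scaled by their totals alone, 668 rises (39.5%) were kept and 906 (53.5%) undone, and 514 falls (84.5%) were kept and 79 (13.0%) undone. The median log2 fold change of all genes in dry against late was -0.29 on the TMM scale and -1.53 on library totals. On either scale both kept and undone genes were found in each direction. When a hydrated or late library was left out, the lists of rises and falls themselves shrank. Lower counts of kept and undone genes therefore do not by themselves show a changed division. The division did move, however. As shares of the shorter lists, kept rises and kept falls both lay above the reported shares in each of these settings. They were highest without late replicate 2. Without either dry replicate, both kept shares lay below those reported. Kept rises numbered 387, 413 and 398 when hydrated replicate 1, hydrated replicate 2 or late replicate 1 was left out. For undone rises the numbers were 184 and 208 with a hydrated replicate (1, then 2) left out, 170 and 157 with a late one and 235 with dry replicate 1. Leaving out the same hydrated and late libraries in that order gave 566, 536, 489 and 535 kept falls and 215, 202, 208 and 158 undone falls.

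Among the late genes, the shares kept and undone in dry drops differed by level. Shares of all tested genes by level are not given here, so whether this is particular to the late genes was not tested. Among rises in the top quartile of early signal, 72.3% of 350 were kept and 21.4% undone. In the lowest quartile 45.7% of 363 were kept and 35.5% undone. Falls went the other way, with 58.0% of 676 kept in the top quartile and 80.7% of 114 in the lowest, and 32.1% against 12.3% undone. Of the tested genes, 9261 and 9686 had reads in the dry libraries, against 10189 to 10416 in the hydrated and late ones, and the part of this in these shares was not tested. By size of the late change, 67.9% of 134 rises under 2-fold were kept, 53.5% of 495 up to 4-fold, 60.0% of 455 up to 16-fold and 54.1% of 122 beyond. For falls the shares were 39.8% of 206, 60.0% of 758, 79.1% of 392 and 69.6% of 46. Size and level were not separated, so a relation of size itself to the course in dry drops was not tested.

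In the RNA pool of dry drops the rises that moved on outweighed all other rises. The 381 genes held 0.99% and 1.11% of the counts in hydrated libraries, 6.41% and 4.87% in late ones and 13.7% and 13.2% in dry ones. The 307 undone rises that did not pass the hydrated level held 0.44% and 0.48%, then 2.70% and 3.05%, then 0.27% and 0.32%. Both classes were chosen on these libraries, so the direction of their dry shares follows from that choice. In the dry libraries, 41.3% to 45.4% of the counts of the 381 genes lay in 10 genes. All 1206 rises together held 15.4% and 15.5% of the counts in dry drops, above the 13.5% and 12.6% of late desiccation although 361 of them were undone. The 288 held genes went from 2.95% and 3.0% at late desiccation to 1.26% and 1.75% in dry drops as shares of counts, while their median on the TMM scale was 0.20 higher in dry than in late. These scales differ by the TMM factors, 0.529 and 0.645 for the dry libraries and 1.33 and 1.48 for the late ones.

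**Figure D4:**
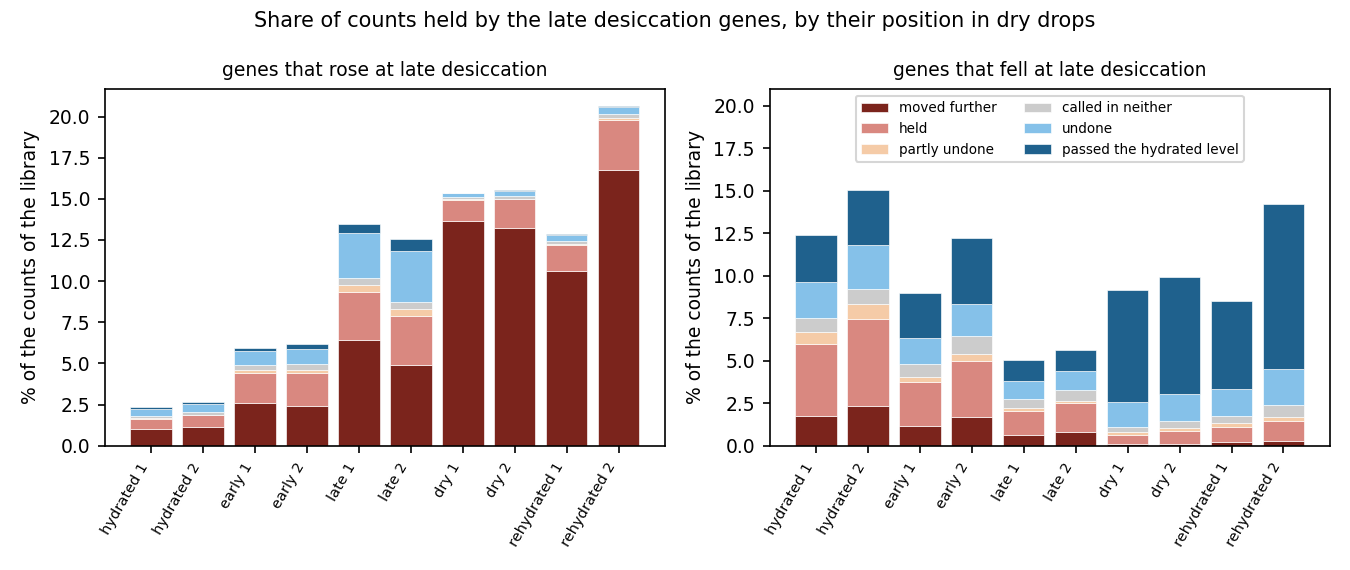
Percent of the counts of each library (vertical axis) held by the genes that rose (left) or fell (right) at late desiccation, with 1 bar per library, stacked by the genes' calls in dry drops. Rises that moved further fill most of the bars of the dry libraries on the left (13.7% and 13.2%). Falls that passed the hydrated level fill most of those on the right (6.58% and 6.94%). The classes were chosen on the hydrated, late and dry libraries, so the direction of these dry shares follows from that choice.

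Drops wetted for 1 h kept the same order of classes. The rehydrated libraries were in none of the contrasts that made the division, though they shared its filter, scaling and fit. Their fold changes also share the hydrated libraries. Undone genes are here those that did not pass the hydrated level. Rises that moved further in dry had a median log2 fold change of 3.39 in rehydrated drops against hydrated, beside 3.77 in dry. Held rises had 2.07 beside 2.13 and undone rises 0.11 beside -0.14. Falls that moved further had -2.84 beside -3.83, held falls -1.88 beside -2.06 and undone falls -0.22 beside 0.08. Of the 145 falls that had passed the hydrated level, the median was 1.14 beside 1.38. Of all 1206 rises, 49 (4.06%) were called lower and 29 (2.4%) higher in rehydrated than in dry drops, where 2.39% and 2.73% of all genes were called. Of the 1402 falls, 47 (3.35%) were called higher and 39 (2.78%) lower. The 2 rehydrated libraries differed widely, with all late rises at 12.9% of the counts in replicate 1 and 20.6% in replicate 2.

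Of the rises held in dry drops that met the limits on counts, TRINITY_DN59522_c0_g1 had the largest fitted change. It had 0 counts in both hydrated libraries, 44 and 19 in the early, 83 and 126 in the late, 0 and 24 in the dry and 39 and 24 in the rehydrated libraries. Late and hydrated libraries did not overlap, and the dry pair was split between none and a level like that of late drops. It was at least 30.9-fold higher at late desiccation, taking 3 counts over the hydrated stage as the floor (16.9 ± 1.25 CPM, SD, n = 2, edgeR adjusted p = 0.00238). In dry against late its log2 fold change was -0.86 (SE 0.72, edgeR adjusted p = 0.346), resting on 1 dry library with reads.

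Of the undone rises that did not pass the hydrated level and met the limits on counts, TRINITY_DN149032_c0_g2 had the largest fitted change. It had 0 counts in both hydrated libraries, 39 and 0 in the early, 231 and 489 in the late, 0 in both dry and 21 and 14 in the rehydrated libraries. The late pair was the highest, hydrated and dry drops had no read, and the early pair was split. It was at least 107-fold higher at late desiccation than in hydrated drops at the same floor (55.7 ± 8.90 CPM, SD, n = 2, edgeR adjusted p = 0.00123). From late to dry it fell to no reads (edgeR adjusted p = 0.00251).

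Of the falls held in dry drops under the same limits, TRINITY_DN28511_c0_g2 had the largest fitted fall. It had 23 and 38 counts in the hydrated libraries, 13 and 14 in the early, 0 in both late and both dry, and 0 and 22 in the rehydrated libraries. It was at least 45.9-fold lower at late desiccation than the 11.0 ± 4.08 CPM (SD, n = 2) of hydrated drops (edgeR adjusted p = 0.00444). The rewetted pair was split.

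Of the undone falls that did not pass the hydrated level and met the same limits, TRINITY_DN43410_c0_g1 had the largest fitted fall. It had 45 and 22 counts in the hydrated libraries, 10 and 0 in the early, 0 in both late, 10 and 11 in the dry and 13 and 7 in the rehydrated libraries. The late libraries were the only stage with no read in either library. It was at least 50.3-fold lower at late desiccation than the 11.9 ± 5.52 CPM (SD, n = 2) of hydrated drops (edgeR adjusted p = 0.000687). In dry drops it stood at 8.51 ± 1.12 CPM (SD, n = 2), with a log2 fold change against hydrated of -0.50 (SE 0.72, edgeR adjusted p = 0.6). These 4 genes each share an assembly cluster with 1 other gene of the table, as 34.2% of the rises, 33.8% of the falls and 29.0% of tested genes share one, so the counting may have divided reads among near-identical sequences and their values are uncertain.

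**Figure D5:**
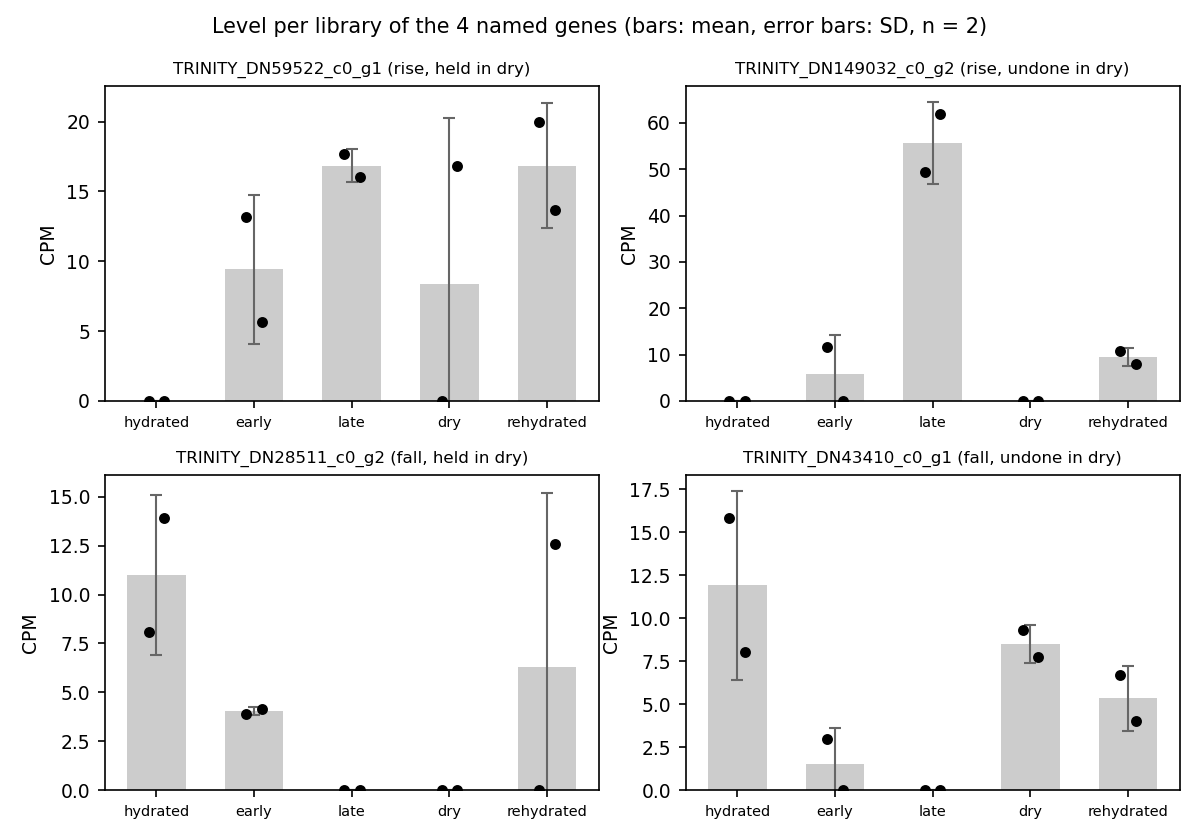
Level in CPM (vertical axis, from 0) in each of the 10 libraries for the 4 genes named by the fixed rule. Points are libraries, bars the mean of the 2 libraries of a stage and error bars the SD (n = 2). Both rising genes have no reads in hydrated drops, both falling genes none at late desiccation, and the dry pair of TRINITY_DN59522_c0_g1 is split between 0 and 16.8 CPM.

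The largest fitted fall of all was in a gene of the group that passed the hydrated level. TRINITY_DN6519_c0_g1, singled out after its values had been seen, had 1346 and 1355 counts in the hydrated libraries, 2955 and 1897 in the early, 0 in both late, 1887 and 1707 in the dry and 2362 and 1769 in the rehydrated libraries. A gene with many counts at every other stage was therefore without a counted read at late desiccation alone. It was at least 2030-fold lower than in hydrated drops, with 3 counts over the late stage as the floor (edgeR adjusted p = 3.82e-06), and in dry drops its log2 fold change against hydrated was 1.61 (SE 0.318, edgeR adjusted p = 0.00177). Both late libraries lay at least 4-fold below the lowest of the other 8 libraries in 8 tested genes with 5 CPM or more there, and at least 4-fold above the highest in 54 genes. By the same rule the dry libraries lay below all others in 11 genes and above in 4, and the hydrated ones in 0 and 42. The early libraries lay below in 0 genes and above in 1, and the rehydrated ones in 1 and 2. At 16-fold the late libraries lay below in 5 genes and above in 4. The dry libraries then had 3 and 0, and the hydrated ones 0 and 3. TRINITY_DN6519_c0_g1 shares its assembly cluster with 1 other gene of the table, whose counts are not given here. The counting may have divided reads between them, so its absence at late desiccation and its fold change are uncertain.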

How the data were processed

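Tables were deposited for 17148 assembled genes. The first holds expected counts per gene as deposited by the authors, with 10.1% to 19.7% of values per library not whole. The other holds a signal of expression that the authors put on a TMM scale, per the file names. Tools named in the submitters' processing notes are RSEM 1.2.28, Bowtie2 2.2, Trimmomatic 0.35, CASAVA 1.4 and DESeq2, with no order. Per the labels' protocols, ribosomal RNA was depleted with kit oligos and 105 custom ones. Any genome build or annotation is not given in the sources used here. Column names gave replicate and stage, and 0 columns were left unmatched.

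Values were then rounded to whole numbers. The filter (edgeR's filterByExpr, minimum count 10, minimum total 15) removed 6681 genes. With TMM scaling, 1 quasi-likelihood fit (in edgeR 4.0.16 under R 4.3.3) covered all 10 libraries, with stage as its only term, and contrasts were tested two-sided, with p adjusted over all tested genes by Benjamini-Hochberg. SE was computed by dividing the log2 fold change by the square root of F. Log2 CPM used a prior count of 2. Floors cover counting error only, while SE and SD also hold the scatter between libraries. The test was tried on simulated data, where it missed most genes changed 2-fold. A gene without a call, as in the held class, may therefore still have changed.

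The named genes are the largest fitted rise and fall held in dry drops, and the largest undone ones. Each had an adjusted p below 0.05, 5 CPM or more in the higher stage, 10 counts in each of its libraries and no overlap. The members, lists and rules were chosen with earlier results of these data known. Alternatives were other scalings, filters and tools (DESeq2 1.42.0, limma 3.58.1 on the deposited signal), a 2-fold minimum, a replicate block, fewer stages, thinning, removal of length trends and leaving out each library.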

Additional observations from a re-analysis of the deposited data

Results flagged for a closer look

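The genes removed by the low-count filter had reads far more often at late desiccation than in the control stage, which the comparison of tested genes does not show. Of these 6681 genes, 6328 had reads in late replicate 1 and 6556 in late replicate 2, against 3292 and 3319 in the hydrated libraries and 1481 to 3513 in the other 6. They held 0.97% and 1.17% of the counts of the late libraries and 0.37% and 0.42% of those of the hydrated ones. Reads in both late and neither hydrated library were found for 2298 of them, and the reverse for 15. The late libraries are also the deepest.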

How the results depend on the processing

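Under 13 alternatives other than leaving out a library, rises stayed within 1.5 times the reported count in 11, falls in 10, kept rises in 13, undone rises in 9, kept falls in 11 and undone falls in 10. With library totals alone there were 608 falls, 906 undone rises, 514 kept falls and 79 undone falls. DESeq2 gave 177 undone rises. With limma on the deposited signal (pseudocount 1, no filter on low values) there were 3243 rises and 2469 undone rises, and with a minimum mean of 1 there were 856 falls and 205 undone falls. With a pseudocount of 0.1 and that minimum there were 745 rises, 648 falls, 175 undone rises, 424 kept falls and 191 undone falls. The cause of these differences was not tested. Leaving out each hydrated, late or dry library gave 619 to 1218 rises, 740 to 1458 falls, 387 to 633 kept rises, 157 to 266 undone rises, 489 to 762 kept falls and 158 to 344 undone falls. A stage left with 1 library is assumed to vary like the others. No gene called at late desiccation was called in the opposite direction under any of these 19 settings. Thinned to equal totals, 985 genes rose and 1143 fell. With the replicate number as a block, 1210 rose and 1462 fell. Nothing says that the numbers pair the libraries, and the deviations of same-numbered libraries correlated at 0.00804 between hydrated and late, and at 0.000422 to 0.141 between all stages. In late against hydrated, the 4 named genes kept direction and call in every setting, with 1 exception. TRINITY_DN28511_c0_g2 did not pass the threshold with limma at a pseudocount of 0.1 (log2 difference -6.35). Whether these genes stayed held or undone in dry drops was not followed across settings. Depth limits what can be said of low genes in dry drops, whose libraries are among the smallest.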
